A study of Danio rerio with 4 samples.

Results

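Iron handling in the fasting zebrafish liver was followed through 10 genes: the ferritin genes fth1a, fthl27 and fthl31, the plasma carrier gene tfa, the receptor genes tfr1a, tfr1b and tfr2, the hormone gene hamp, the exporter gene slc40a1 and the heme-degrading enzyme gene hmox1a. They were taken by gene name from 32058 gene rows. Where a name had 2 identifiers, as fthl27 and fthl31 do, the identifier with the most counts was used. All 10 had enough counts to be tested, tfr1a only through its lipofermata libraries. Larvae of the AB strain received no food and were kept from 4 dpf with 5 μM lipofermata, a small-molecule inhibitor of the fatty acid transporter FATP2, or with DMSO alone (vehicle). After 48 h, at 6 dpf, livers were dissected and polyadenylated RNA was sequenced. Both groups were sequenced as 2 pools, every pool holding the livers of 30 larvae, and no source used here says whether the pools came from separate clutches, so the p-values measure the spread between pools. The count file also has a row for an EGFP reporter, with 818 and 711 CPM in the vehicle libraries and 495 and 322 CPM in the lipofermata libraries, although the labels name no transgene.

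The liver stores iron, makes the proteins that carry it in blood and secretes the hormone that limits its entry into plasma. Ferritin is a hollow shell of subunits that holds iron, and its heavy subunit oxidizes the metal as it enters. Transferrin carries iron in plasma and is taken up by transferrin receptors. Hepcidin, the product of hamp, binds the exporter ferroportin (slc40a1) and causes its degradation, so that less iron leaves cells. In vertebrates, iron regulatory proteins bind stem-loops in ferritin and transferrin receptor mRNAs when iron is scarce, which blocks translation of ferritin and stabilizes the receptor mRNA. The counts reported here measure mRNA, not protein or iron.

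The 4 libraries held 14997821 to 19368695 counts. Of 14925 genes tested, 16.6% rose and 16.9% fell with lipofermata at an adjusted p under 0.1 from edgeR's quasi-likelihood test. An exact two-sided permutation test of 2 against 2 pools cannot give a p below 0.333, so the p-values from edgeR draw on dispersion estimated over many genes. Values are CPM, the counts of a gene scaled to a common library size, with library sizes adjusted by the TMM method of edgeR. Since transcript lengths were not used, levels are compared between libraries and not between genes. Scaling by total counts moves the median log2 fold change of all genes from -0.03 to 0.36. A rise or fall below is therefore a change relative to most genes. Hepatocyte markers were abundant, with a summed level of 164021 and 209717 CPM with vehicle and 104175 and 108211 CPM with lipofermata. Of 20, 9 fell, 1 rose and 10 did not pass, and their median log2 fold change of -0.39 was 0.01 with total-count scaling. Fewer of the 20 fell when either lipofermata library was left out. The median was then -0.35 without lipofermata replicate 1 and -0.53 without lipofermata replicate 2. Liver fatty acid binding protein gene fabp10a, which did not pass, had 8320 and 10003 CPM with vehicle and 7300.2 and 8152 CPM with lipofermata. In the same livers 12 of 14 endothelial markers fell, with a summed level of 756 to 848 CPM with vehicle and 215 to 229 CPM with lipofermata. Pancreas markers summed to 3966 and 8879 CPM with vehicle and 10179 and 4680 CPM with lipofermata. Epidermis markers summed to 574 and 734 CPM with vehicle and 159 and 176 CPM with lipofermata, and of 8 tested 5 fell and 1 rose. In pooled tissue, fewer cells of a type and less RNA per cell cannot be told apart.

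Of the 10 iron genes, 6 rose with lipofermata (fth1a, fthl31, tfr1a, tfr1b, tfr2 and hamp), 2 fell (tfa and hmox1a), and fthl27 and slc40a1 did not pass the test. Over all genes tested, 16.6% rose and 16.9% fell. As tfr1a passed the filter on low counts only through the lipofermata libraries, only a rise could be called for it. The libraries of the 2 groups did not overlap for 9 of the 10 genes, slc40a1 being the exception, and for 65.2% of all genes tested. The median log2 fold change of the 10 genes was 0.56. With total-count scaling 7 rose and 1 fell, fthl27 joining those that rose and tfa no longer passing. Of all 14925 genes tested, 5092 rose and 1182 fell with that scaling. With either lipofermata library left out, fewer of the 10 genes were called, and each kept its direction. These fits leave 1 sample in a group, and the number called among all genes also changed with the library left out. Their counts of calls are therefore not set against those above.

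**Figure D1:**
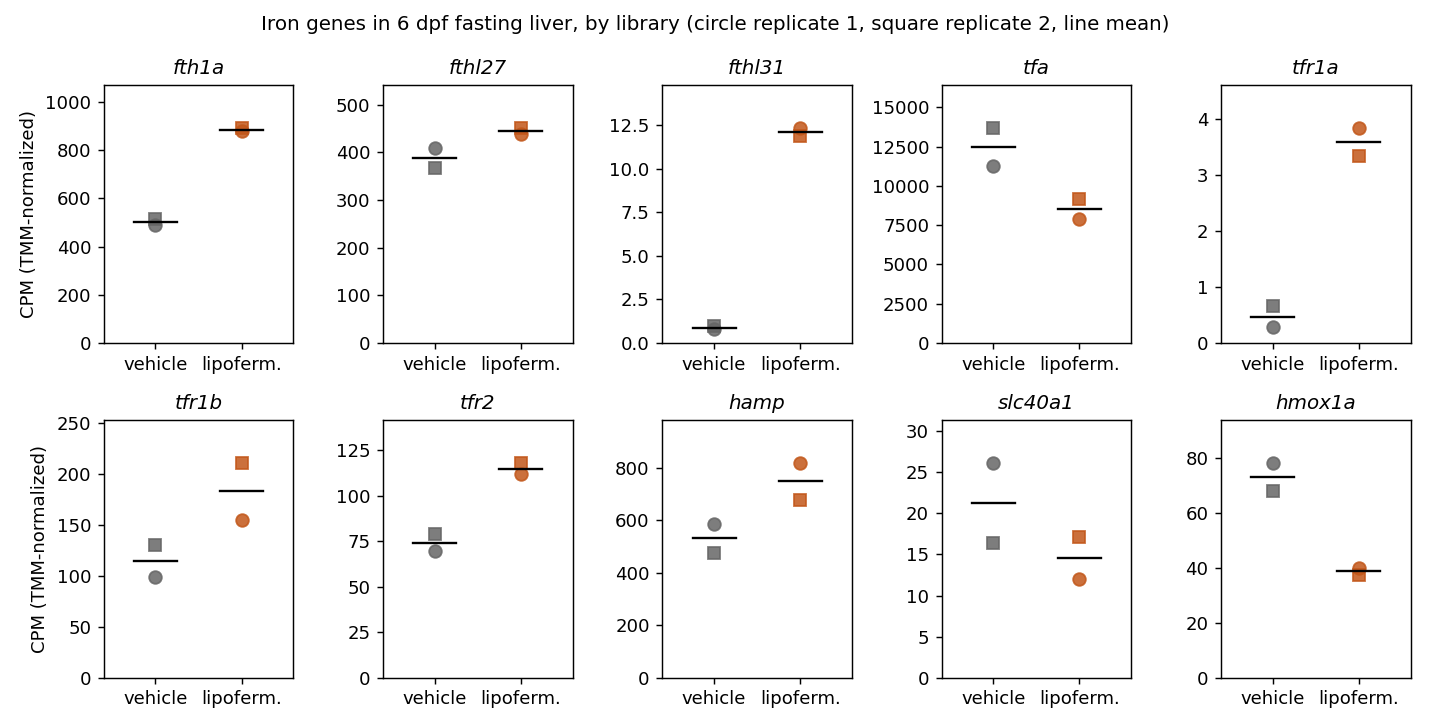
Level of each of the 10 iron genes (CPM, TMM-normalized, linear axes from 0) in the 2 vehicle and 2 lipofermata libraries, with the group mean as a line, circles for replicate 1 and squares for replicate 2. In the panel of fthl31 both lipofermata libraries lie near 12 CPM and both vehicle libraries under 1 CPM, while the groups overlap in that of slc40a1.

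Among the storage genes, fth1a (ENSDARG00000015551), a ferritin heavy subunit, had 487 and 513 CPM in the vehicle libraries and 879 and 892 CPM in the lipofermata libraries. The replicates of each group lay close together and the groups were well apart. The rise was 1.77-fold, a log2 fold change of 0.82 (standard error 0.15, edgeR adjusted p = 0.0031, n = 2 pools per group), and it passed under all 13 alternatives tried. The gene fthl27 (ENSDARG00000031776), named as a ferritin heavy-like gene, had 409 and 366 CPM with vehicle and 439 and 451 CPM with lipofermata. Both lipofermata libraries were higher, but the gap between the groups was smaller than the difference between the vehicle libraries. Its log2 fold change of 0.20 did not pass the test (standard error 0.15, edgeR adjusted p = 0.35). With total-count scaling it was 0.58 and passed (edgeR adjusted p = 0.017; the alternatives ranged from 0.017 to 0.73).

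The ferritin-like gene fthl31 (ENSDARG00000094210) was close to silent in the vehicle livers and had the largest change of the 10. It had 14 and 12 counts with vehicle, or 0.776 and 0.98 CPM, and 247 and 217 counts with lipofermata, or 12.3 and 11.9 CPM. All of the difference lay between the groups, since replicates differed by about 0.2 CPM with vehicle and by under 0.5 CPM with lipofermata. The rise was 13.9-fold, a log2 fold change of 3.80 (standard error 0.30, edgeR adjusted p = 4.6e-05), and 40 of the 14925 genes tested had a larger positive log2 fold change. It passed under all 13 alternatives, with 3.63 to 4.18.

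In the RefSeq annotation of the GRCz12tu assembly, where all 7 ferritin names matched by symbol, the genes fthl27, fthl28, fthl30, fthl31 and fthl29 follow one another in this order with no other gene between them. The neighbours fthl28 and fthl29 were also higher with lipofermata. The gene fthl28 (ENSDARG00000076221) had 5.66 and 6.45 CPM with vehicle and 37.1 and 44.9 CPM with lipofermata, a log2 fold change of 2.77 (standard error 0.18, edgeR adjusted p = 1.6e-05). The gene fthl29 (ENSDARG00000113977) had 3 and 0 counts with vehicle and 81 and 97 with lipofermata, a scaled ratio of 47.0 (95% exact counting interval 15.8 to 229.8). It entered the test only through the lipofermata libraries, so only a rise could be called. It passed the test (edgeR adjusted p = 5.0e-04) with a fitted log2 fold change of 5.48, and of 9.30 and 4.76 when vehicle replicate 1 or 2 was left out, the former against 0 counts. For fthl30, which had too few counts to be tested, 1 and 2 counts with vehicle stood against 8 and 8 with lipofermata. The ratio was 4.22 (95% exact counting interval 1.21 to 22.6). Such intervals take every count as independent and leave out the spread between pools, so they are too narrow to compare the groups. Outside this row of genes, fth1b (ENSDARG00000007975) had 2.66 and 5.72 CPM with vehicle and 2.90 and 4.38 CPM with lipofermata, with overlapping groups and a log2 fold change of -0.18 that did not pass.

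Of the 7 ferritin names, 6 were tested, 4 rose and 2 did not pass, and the median log2 fold change was 1.79 against -0.03 over all genes, of which 16.6% rose. Among these 4 is fthl29, for which only a rise could be called and whose value is part of the median. The second identifiers behaved as follows. That of fthl27 (ENSDARG00000116586) had 2 and 0 counts with vehicle and 41 and 43 with lipofermata, a scaled ratio of 33.2 (95% exact counting interval 8.92 to 279). It passed the test with a log2 fold change of 4.94 (edgeR adjusted p = 0.0029). It entered the test only through the lipofermata libraries, so only a rise could be called. That of fthl31 (ENSDARG00000113150) had 0 counts with vehicle and 3 in all with lipofermata, which is at the floor of 3 counts and gives no fold. How reads that match several of these similar genes were counted is not given in the sources used here, so the division of counts among the ferritin-like genes is uncertain. The same holds for their sum. Over all 9 ferritin rows the summed level was 906 and 893 CPM with vehicle and 1377 and 1413 CPM with lipofermata. The 2 most counted genes, fth1a and fthl27, took 99.0% and 98.5% of ferritin counts with vehicle and 95.7% and 95.1% with lipofermata. Within these counts the share of fth1a was 53.8% and 57.5% with vehicle and 63.8% and 63.1% with lipofermata, and that of fthl27 was 45.1% and 41.0% against 31.9% and 32.0%.

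**Figure D2:**
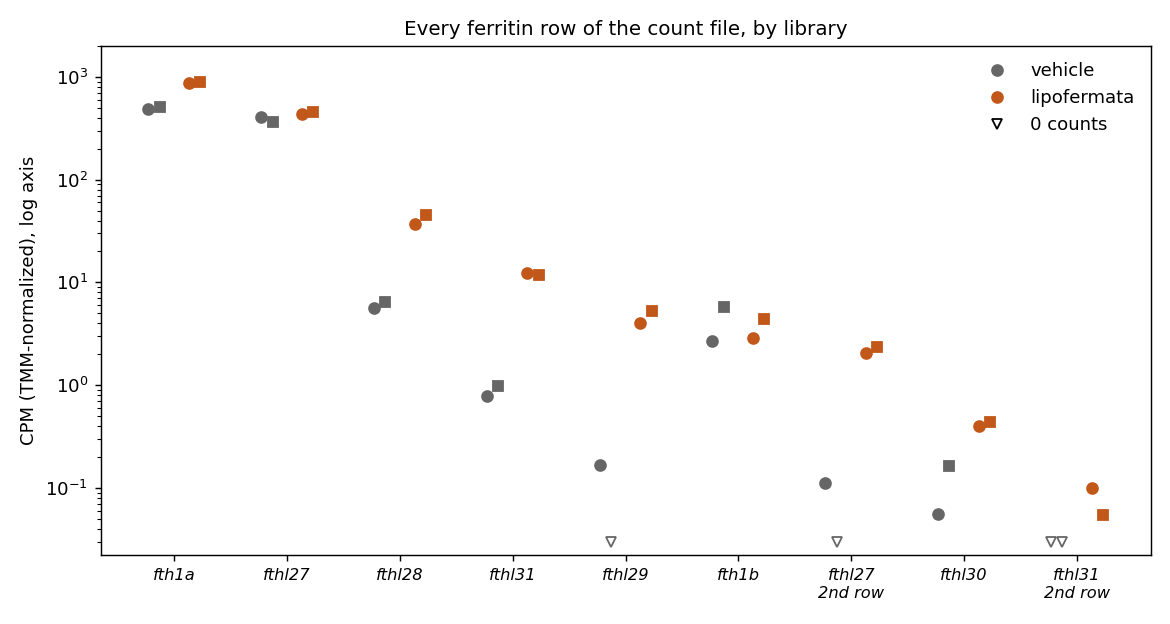
Level of all 9 ferritin rows of the count file (CPM, TMM-normalized, log axis) in each vehicle and lipofermata library, with open triangles at the lower edge for libraries with 0 counts. The points of fth1a and of the more counted fthl27 identifier lie above 300 CPM in every library. The gap between vehicle and lipofermata is small for that identifier and wide for fthl28, fthl31, fthl29 and the second row of fthl27, which stays under 3 CPM.

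The transferrin gene tfa (ENSDARG00000016771), a plasma protein gene of hepatocytes, was lower with lipofermata. It had 11234 and 13686 CPM with vehicle and 7866 and 9157 CPM with lipofermata, and made up 1.05% and 1.12% of all counts against 0.908% and 1.04%. Both lipofermata libraries lay below both vehicle libraries, with replicates about as far apart as the nearest libraries of the 2 groups. The log2 fold change was -0.55 (standard error 0.18, edgeR adjusted p = 0.048). The most abundant hepatocyte markers, the fetuin gene fetub (-1.51) and the apolipoprotein genes apoa1b (-0.72) and apoa2 (-0.71), fell in the same livers. They also fell with total-count scaling (-1.10, -0.32 and -0.31). Of all 20 hepatocyte markers, 9 fell, 1 rose and 10 did not pass, against 16.9% and 16.6% of all genes that fell and rose. What part the change of these markers has in the value of tfa was not tested. Without lipofermata replicate 1 or 2, fetub passed and apoa1b and apoa2 did not. For tfa the call was lost with total-count scaling (-0.15, edgeR adjusted p = 0.27), without lipofermata replicate 1 (-0.44, 0.50) and when replicate 2 of that group was left out (-0.66, 0.28), and the lowest adjusted p over the alternatives was 3.1e-06.

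All 3 receptor genes were higher. The gene tfr1a (ENSDARG00000101322), which in zebrafish serves iron uptake by developing red cells, had 5 and 8 counts with vehicle and 77 and 61 with lipofermata, or 0.277 and 0.653 CPM against 3.85 and 3.34 CPM. The level was low in every library and the groups were far apart. Its vehicle counts lay under the filter's minimum of 10, so it was tested only because of the lipofermata libraries. The rise was 8.02-fold, a log2 fold change of 3.004 (standard error 0.54, edgeR adjusted p = 0.0032). Dropping vehicle replicate 1 lowered this value to 2.46, and dropping replicate 2 of that group raised it to 3.67. The markers of red cells were measured beside tfr1a. Of 10 tested erythroid markers 1 rose and 9 did not pass, while 16.6% of all genes rose and 16.9% fell. The one that rose, the red cell anion exchanger gene slc4a1a, had 2 and 8 counts with vehicle and 48 and 38 with lipofermata, a 6.30-fold rise and a log2 fold change of 2.66 (standard error 0.73, edgeR adjusted p = 0.023) that did not pass without lipofermata replicate 1 (2.52). The 10 tested markers had a median log2 fold change of -0.37. This median fell to -0.80 after vehicle replicate 1 was dropped, and rose to 0.60 after replicate 2 of that group was. Each of these 2 fits leaves 1 vehicle sample, and in both the median moved in the same direction as tfr1a. The part of red cells in the level of tfr1a was not tested. The 3 with the highest level were the ammonium transporter gene rhag, which held 335.9 to 481.4 CPM, blvrb with 58.1 to 67.8 CPM and the embryonic globin gene hbae3 with 8.87 and 26.5 CPM with vehicle and 11.1 and 13.04 CPM with lipofermata. The erythroid transcription factor gene gata1a had at most 0.163 CPM. The summed level of the 15 markers was 419 and 587 CPM with vehicle and 426 and 435 CPM with lipofermata. Most of this sum was rhag in every library, so it says little about the other markers.

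The paralog tfr1b (ENSDARG00000077372), the transferrin receptor of tissues other than red cells in zebrafish, had 98.2 and 130.2 CPM with vehicle and 154 and 211 CPM with lipofermata. The groups did not overlap, though replicates differed widely within each. The log2 fold change was 0.68 (standard error 0.19, edgeR adjusted p = 0.027), and without lipofermata replicate 2, the higher library, it was 0.44 and did not pass (edgeR adjusted p = 0.31, the highest over the alternatives, of which the lowest was 1.9e-07). The gene tfr2 (ENSDARG00000103727), whose product senses transferrin-bound iron in mammalian hepatocytes, had 69.6 and 78.8 CPM with vehicle and 112 and 118 CPM with lipofermata. Replicates were close and the groups apart. The log2 fold change was 0.63 (standard error 0.14, edgeR adjusted p = 0.0098). Without lipofermata replicate 2 it was 0.59 and did not pass (edgeR adjusted p = 0.12, the highest over the alternatives, of which the lowest was 3.9e-05).

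Other genes of iron import moved in both directions. Of 8 tested genes of the transferrin cycle and iron import, 5 rose, 2 fell and 1 did not pass, against 16.6% and 16.9% of all genes, and the median log2 fold change was 0.50. Among the 5 is tfr1a, for which only a rise could be called. The divalent metal importer gene slc39a8 rose from 2.66 and 2.69 CPM to 4.40 and 7.72 CPM (log2 fold change 1.17, and 0.72 without lipofermata replicate 2, which did not pass). The ferrireductase gene steap4 fell from 173 and 165 CPM to 90.0 and 90.1 CPM (-0.91). Fewer genes of this list were called when either lipofermata library was left out, which leaves 1 sample in that group.

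**Figure D3:**
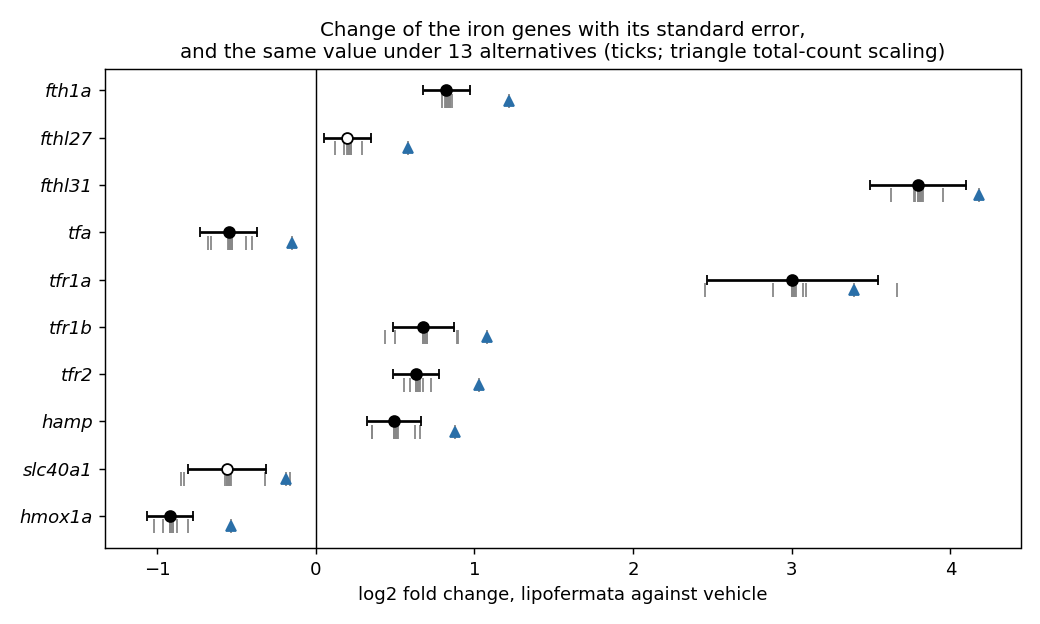
Log2 fold change of the 10 iron genes, lipofermata against vehicle, with the standard error from edgeR (filled circles passed the test, open circles did not), and the same value under 13 alternatives as ticks, the triangle being total-count scaling. The values of fthl31 and tfr1a lie far to the right of the others, and none crosses 0 under any alternative.

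The hormone gene hamp (ENSDARG00000102175) had 586 and 476 CPM with vehicle and 819 and 678 CPM with lipofermata. The lower lipofermata library lay above the higher vehicle library by less than the replicates of either group differed. The rise was 1.41-fold, a log2 fold change of 0.49 (standard error 0.17, edgeR adjusted p = 0.057). Leaving out lipofermata replicate 1 or 2 gave 0.35 and 0.63, neither of which passed (edgeR adjusted p = 0.49 and 0.17; the alternatives ranged from 1.5e-04 to 0.49), nor at a threshold of 0.05.

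Transcription of hepcidin in the mammalian liver responds to BMP ligands through Smad proteins, with hemojuvelin (hjv) as a coreceptor, and to interleukin-6 through Stat3. Of 28 tested genes of hepcidin and its regulators, 3 rose (hamp, tfr2 and smad9), 7 fell and 18 did not pass, against 16.6% and 16.9% of all genes. Their median log2 fold change was -0.16. The receptor-regulated Smad gene smad9 rose from 15.2 and 9.15 CPM to 25.7 and 21.9 CPM (log2 fold change 0.95). The inhibitory Smad gene smad6a fell from 14.4 and 18.2 CPM to 7.30 and 7.56 CPM (-1.13), and the ligand gene bmp2a from 7.65 and 8.17 CPM to 3.80 and 2.63 CPM (-1.29). The BMP receptor gene bmpr1aa fell from 37.6 and 33.9 CPM to 20.4 and 21.6 CPM (-0.77, and -0.39 with total-count scaling, which did not pass). The BMP target gene id1 fell from 14.2 and 9.23 CPM to 6.35 and 5.81 CPM (-0.96). Related genes of the list, smad6b (-0.18), bmp2b (0.68), bmpr1ab (-0.14) and id3 (-0.09), did not pass. The level of id3 was 41.4 and 32.3 CPM with vehicle and 32.1 and 37.4 CPM with lipofermata. The call of id1 was lost with total-count scaling (-0.59) and when vehicle replicate 1 (-0.59) or lipofermata replicate 2 (-0.89) was left out.

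The upstream genes bmp6, whose product comes from endothelial cells in the mouse liver, and hjv did not pass. The level of bmp6 was 13.1 and 14.5 CPM with vehicle and 12.3 and 12.3 CPM with lipofermata, and that of hjv was 14.3 and 16.4 CPM against 13.1 and 14.2 CPM. Their log2 fold changes were -0.17 and -0.16. Endothelial markers, measured beside them, had a median log2 fold change of -1.81, and their part in the values of bmp2a, smad6a and id1 was not tested. With total-count scaling 9 genes of this list rose and 2 fell, beside 5092 and 1182 of all 14925 genes tested. Leaving out either lipofermata library, and so 1 sample in that group, gave fewer calls in this list.

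The ferroportin gene slc40a1 (ENSDARG00000000241) had 26.2 and 16.3 CPM with vehicle and 11.99 and 17.1 CPM with lipofermata. The groups overlapped, and the highest library was vehicle replicate 1. The log2 fold change was -0.56 and did not pass (standard error 0.24, edgeR adjusted p = 0.12). Leaving out vehicle replicate 1 or 2 gave -0.16 and -0.85, and leaving out lipofermata replicate 1 or 2 gave -0.32 and -0.83. It passed when replicate 2 of either group was left out, with limma voom and with no filter on low counts (adjusted p of 5.2e-05 to 0.65 over the alternatives). Macrophages, which export iron from engulfed red cells through ferroportin, also had uneven vehicle libraries. The 15 macrophage markers summed to 114 CPM in vehicle replicate 1, 37.7 in vehicle replicate 2, and 39.2 and 41.2 CPM with lipofermata. Of 11 tested, 5 fell and 6 did not pass, while 16.9% of all genes fell and 16.6% rose. The median log2 fold change of these markers was -1.09, and 0.28 without vehicle replicate 1. Their part in the level of slc40a1 was not tested. The ferroxidase genes cp and hephl1a did not pass either, so that none of the 3 tested genes of iron export and oxidation was called by edgeR. At an unadjusted threshold of 0.05 edgeR called 1 of them, slc40a1, and DESeq2 called 0. For cp, which encodes the plasma ferroxidase ceruloplasmin, the log2 fold change was -0.11. In this list cp fell when vehicle replicate 1 was left out, slc40a1 and hephl1a when vehicle replicate 2 was, and slc40a1 when lipofermata replicate 2 was.

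The heme oxygenase gene hmox1a (ENSDARG00000027529), whose product opens the heme ring and releases its iron, had 78.3 and 67.9 CPM with vehicle and 39.9 and 37.5 CPM with lipofermata. The lipofermata libraries lay close together, far below both vehicle libraries. The fall was 1.89-fold, a log2 fold change of -0.92 (standard error 0.14, edgeR adjusted p = 0.0016). It passed under all 13 alternatives, with -0.54 with total-count scaling. It was -0.80 without vehicle replicate 1, the library with the highest macrophage markers, and the part of macrophages in the level of hmox1a was not tested.

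Of 16 tested genes of heme breakdown and transport, 3 rose, 5 fell and 8 did not pass. The share that rose, 18.8%, was near the 16.6% of all genes, and the share that fell, 31.25%, was above their 16.9%. The median log2 fold change was -0.01. The hemopexin gene hpxa, which encodes a heme-binding plasma protein, fell from 9.31 and 15.5 CPM to 2.90 and 0.329 CPM. Its log2 fold change of -2.90 became -5.20 and -2.09 when lipofermata replicate 1 or 2 was left out, and did not pass with DESeq2. The other hemopexin gene of the list, hpxb, had 460 and 377 CPM with vehicle and 358 and 418 CPM with lipofermata. Its groups overlapped and its log2 fold change of -0.11 did not pass. The heme transporter gene slc48a1a (-0.70) and the constitutive heme oxygenase gene hmox2a (-0.44) fell like hpxa. Neither passed with total-count scaling or DESeq2, nor without vehicle replicate 2 (-0.40 and -0.26), lipofermata replicate 1 (-0.59 and -0.55) or lipofermata replicate 2 (-0.82 and -0.33). The heme-binding membrane protein gene pgrmc1 rose from 109 and 115 CPM to 184 and 178 CPM (0.70). The transporter gene flvcr2b rose from 13.9 and 10.3 CPM to 21.3 and 23.2 CPM (0.87). The gene bach1b, a zebrafish counterpart of the heme-sensing repressor of hmox1 in mammals, rose from 40.4 and 39.8 CPM to 53.6 and 55.7 CPM (0.45). It was 0.48 or 0.42 with lipofermata replicate 1 or 2 left out, neither of which passed. Its paralog bach1a did not pass (-0.02). Fewer genes of this list fell when vehicle replicate 2 or either lipofermata library was left out, which leaves 1 sample in a group.

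Of 11 tested genes of iron sensing and ferritin turnover, 2 rose, 2 fell and 7 did not pass. The share in each direction, 18.2%, was near the 16.6% and 16.9% of all genes, and the median log2 fold change was 0.08. The gene aco1, which encodes iron regulatory protein 1 in the form without its iron-sulfur cluster, rose from 57.9 and 81.1 CPM to 96.9 and 132.6 CPM (0.73, and 0.48 without lipofermata replicate 2, which did not pass). The gene fbxl5, whose product marks iron regulatory proteins for degradation when iron is plentiful in mammalian cells, fell from 37.1 and 51.6 CPM to 18.9 and 21.1 CPM (-1.14). The hypoxia-inducible factor gene epas1b fell from 91.0 and 83.1 CPM to 43.6 and 45.4 CPM (-0.97). Its paralog epas1a had 240 and 272 CPM with vehicle and 253 and 288 CPM with lipofermata, and did not pass (0.08). The gene keap1a, which restrains the oxidative stress factor Nrf2, rose from 32.0 and 39.6 CPM to 51.1 and 52.6 CPM (0.54). It was 0.56 and 0.52 without lipofermata replicate 1 and 2 and passed in neither. The genes for iron regulatory protein 2 (ireb2, log2 fold change 0.28), for the ferritin autophagy receptor (ncoa4, -0.13) and for Nrf2 (nfe2l2a, -0.13) did not pass. With total-count scaling 6 of the list rose and 2 fell, beside 5092 and 1182 of all 14925 genes tested. Fewer genes of this list rose when either lipofermata library was left out, which leaves 1 sample in that group.

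Most iron leaving the cytosol for use goes to mitochondria, for heme and iron-sulfur clusters. Of 31 tested genes of these steps, 12 rose, 3 fell and 16 did not pass, against 16.6% and 16.9% of all genes, and the median log2 fold change was 0.51. The gene alas1, the rate-limiting enzyme of heme synthesis in liver, rose from 243 and 317 CPM to 774 and 813 CPM, a log2 fold change of 1.502 (standard error 0.17, edgeR adjusted p = 3.0e-04). The gene ciapin1, which serves the assembly of cytosolic iron-sulfur proteins, rose by 0.95. The glutaredoxin gene glrx5, needed for mitochondrial iron-sulfur clusters, rose by 0.72 (0.61 without lipofermata replicate 1, which did not pass). The mitochondrial iron importer gene slc25a28, or mitoferrin 2, fell from 218 and 231 CPM to 93.6 and 110.7 CPM, a log2 fold change of -1.13 (standard error 0.15, edgeR adjusted p = 6.5e-04). The cluster assembly gene isca2 (-0.50) and the heme synthesis gene uros (-0.47) fell, and passed neither with total-count scaling or DESeq2 nor without lipofermata replicate 1 (-0.58 and -0.50) or lipofermata replicate 2 (-0.43 and -0.42), and the call of uros was also lost when vehicle replicate 1 or the filter on low counts was left out (-0.45 in both). With total-count scaling 21 genes of this list rose and 1 fell, beside 5092 and 1182 of all 14925 genes tested. Fewer genes of the list were called in each direction when either lipofermata library was left out.

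Over the 7 lists together, 102 distinct genes were tested, of which 28 rose, 19 fell and 55 did not pass. Of all genes 16.6% rose and 16.9% fell, so that the share that rose was above that of all genes and the share that fell was near it. The lists were chosen with earlier results of these data known, and for tfr1a and fthl29 only a rise could be called. Setting the share that rose beside that of all genes is therefore no test. The median log2 fold change of the 102 genes was 0.12. Without the 10 iron genes, 22 rose and 17 fell of 92 tested, with a median of 0.08 beside -0.03 over all genes. With total-count scaling 49 of the 102 rose and 8 fell, beside 5092 and 1182 of all 14925 genes tested. Fewer of the 102 were called in each direction when either lipofermata library was left out, which leaves 1 sample in that group.

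**Figure D4:**
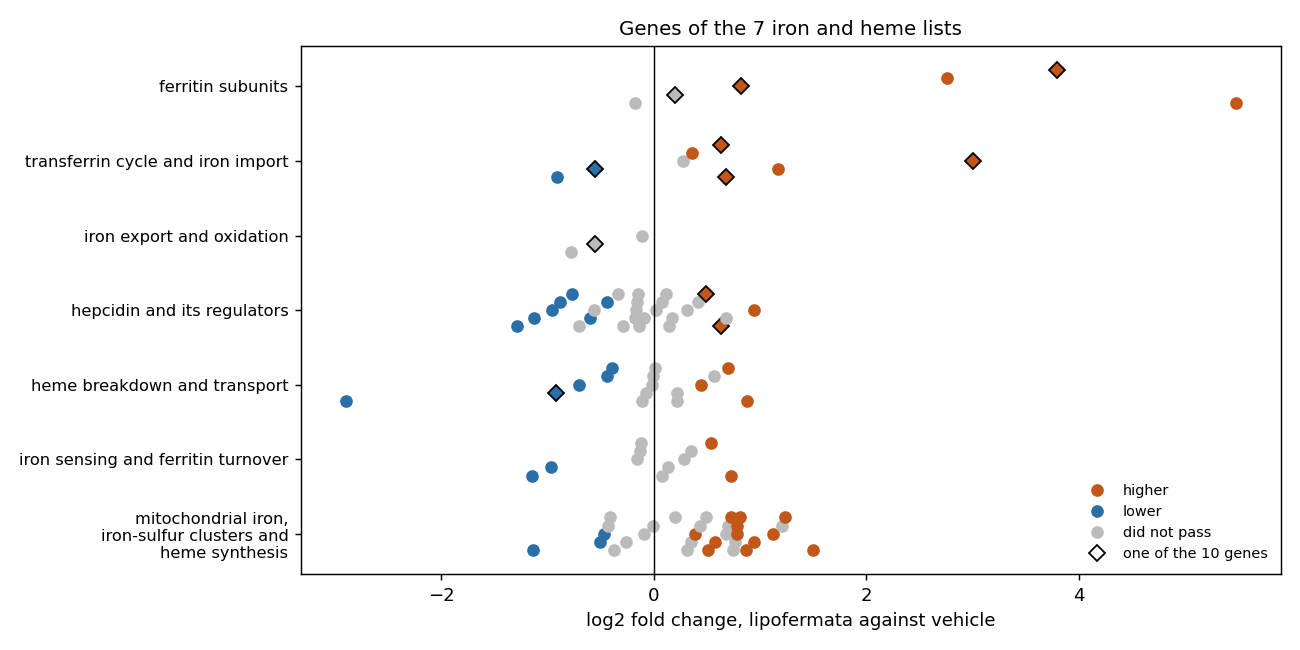
Log2 fold change, lipofermata against vehicle, of each tested gene in the 7 iron and heme lists, coloured by edgeR's call, with diamonds for the 10 iron genes. The ferritin genes fthl31 and fthl29 lie farthest to the right and hpxa farthest to the left, while the list of hepcidin and its regulators holds 7 lower and 3 higher genes.

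For each of the 8 iron genes past the test, the tested genes with the most similar profile over the 4 libraries were found among 8371 with a mean of at least 5 CPM, by the distance between log2 CPM values centred on each gene's own mean. Libraries of 1 group share the treatment, so genes with an equal response lie close by construction. Nearest to fthl31 were prdx1, a peroxiredoxin gene (distance 0.53), the myoglobin gene mb (0.64) and cyp1a, a cytochrome P450 of the aryl hydrocarbon response (0.69), whose log2 fold changes were 3.59, 3.97 and 3.02. Nearest to tfr1b was aco1 (distance 0.08), followed by zmiz2 (0.08) and pemt (0.11). Nearest to hmox1a were the mitochondrial genome transcript mt-co1 (0.02), myo1cb (0.04) and mt-atp6 (0.05), with log2 fold changes of -0.93, -0.92 and -0.94.

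Nearest to fth1a were rdh12l, rrbp1a and rfk, at distances up to 0.03. Nearest to tfa were dnase1l4.2, map3k3 and clec16a, also at distances up to 0.03. Nearest to tfr1a were slc22a6l, ercc6l and slc29a2, at 0.34, 0.41 and 0.54. Nearest to tfr2 were mtif3, cx32.3 and ppat, up to 0.04. Nearest to hamp were zfyve1, efhd2 and mrps33, up to 0.05.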

How the data were processed

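RNA from pooled livers was measured in 4 libraries. The submitters' processing notes name HISAT2, featureCounts and the GRCz11 build for the alignment and gene counting done by the authors. Their versions, the annotation release, the strand setting and the treatment of multiply aligned reads were not given in the sources used here. Values were deposited as raw counts, and all value columns were used. Counts were tested in R 4.3.3 with edgeR 4.0.16 (filterByExpr with a minimum count of 10, TMM scaling, quasi-likelihood F test, treatment as the only term), with Benjamini-Hochberg adjustment over the 14925 tested genes. The threshold of 0.1 follows the paper's methods. The standard error is the log2 fold change divided by the square root of F. Profiles used log2 CPM with a prior count of 2. Counting intervals and the floor of 3 counts cover counting error only. Alternatives used edgeR, limma 3.58.1 and DESeq2 1.42.0. The fits were tested on simulated data.

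The iron genes and lists were chosen with earlier results of these data known. Named genes were the 10 iron genes and, per list, up to 4 genes in each direction with the smallest p among those called, and per marker list up to 3 genes with the highest mean level. A gene that this rule names is not reported here. Also named, after their values were seen, were fth1b, fthl30, the second identifiers of fthl27 and fthl31, bmp6, hjv, cp, hephl1a, ireb2, ncoa4, nfe2l2a, gata1a, slc4a1a and fabp10a. So were hpxb, smad6b, bmp2b, bmpr1ab, id3, epas1a and bach1a. Names not found in the file were left out of the lists.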

Additional observations from a re-analysis of the deposited data

How the results depend on the processing

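The 10 iron genes kept their direction under all 13 alternatives tried, and fth1a, fthl31, tfr1a and hmox1a passed the test in each. Leaving out a library leaves a group with 1 sample, which is then assumed to vary like the other group. Scaled by total counts, 5092 of all genes rose and 1182 fell (2479 and 2527 with TMM), 1 of the iron genes fell, 49 genes of the 7 lists rose and 8 fell, and the mean vehicle level was 437.0 CPM for fth1a, 340.4 for fthl27, 64.7 for tfr2 and 64.3 for hmox1a (500.3, 388, 74.2 and 73.1 CPM with TMM). With DESeq2, 25 genes of the lists rose and 12 fell, beside 1772 and 1799 of all genes. With each library left out in turn, 1128 to 3115 of all genes rose and 1284 to 2898 fell, 3 to 6 of the iron genes rose and 1 to 3 fell, and 13 to 32 genes of the lists rose and 10 to 20 fell. The replicate numbers share only a number, since no label pairs them and deviations of same-numbered libraries had a correlation of 0.03. With the replicate block, 2756 of all genes rose and 2724 fell, 6 of the iron genes rose and 2 fell, and 33 genes of the lists rose and 19 fell, with all 47 calls in the lists kept. Adding rows that share a name, an alternative chosen after seeing the data, changed no call among the iron genes. Counts under 10 in the vehicle libraries limit the size of the change for tfr1a and fthl29. These genes, slc4a1a and the second identifier of fthl27 passed the filter on low counts only through the lipofermata libraries. Only a rise could therefore be called for them.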
